A study of Mus musculus with 135 samples.

Results

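Single haematopoietic stem cells (HSCs) of an old mouse were compared with each other. The cells were the old HSCs that passed the quality limits of the study, which are 62 of the 74 old cells captured and of the 135 cells of both ages. Members were found from the age in the labels and from a list of 12 wells left out. All 62 came from 1 mouse of the strain C57BL/6 that carried the *Vwf-eGFP* transgene, in which the regulatory sequence of *Vwf* drives a green fluorescent protein, and was 20 to 25 months old. The young cells, used below only where they are named, came from 1 mouse with the same transgene, 2 to 3 months old, and 52 of 61 passed the same limits. Cells were sorted as lineage-negative, Sca-1 and c-Kit positive (LSK), CD150+ and CD48-, caught singly on a microfluidic chip and turned into full-length cDNA without molecular identifiers. Since the cells share 1 animal and 1 capture, they are not replicates of old age: spreads below are between cells and no test was made. Intervals cover the sampling of cells from this mouse, and not missed detection. A low share of cells and a low level in each cell cannot be told apart for genes near the limit of detection.

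HSCs sit at the top of blood formation, divide rarely, and keep a network of transcription factors that includes *Gata2*, *Meis1*, *Tal1* and *Runx1*. Single HSCs also transcribe genes of later lineages at low levels, which is known as priming, and platelet genes are a well-known case. Transcription comes in bursts, so that a gene used by a population can be without RNA in some of its cells at a given moment. The conversion of RNA to cDNA in single cells is incomplete, which adds further zeros.

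The level of a gene in a cell is given as log2(CPM + 1), where CPM is the reads of a gene per 1000000 counted reads, and a cell was called expressing when this value was above 2, that is above 3 CPM. The 62 cells held between 276316 and 4086659 counted reads, with a median of 2116024. Between 2964 and 6267 genes were expressed per cell, with a median of 3902. Cells with more reads did not have more expressed genes, since Pearson's r between the number of genes and log10 of the total was -0.54 over the 62 cells, and it was -0.59 when every cell was thinned to 250000 reads. The shallowest cells, A4 with 276316 reads and H1 with 289282, had the most expressed genes, 6226 and 6267. In a cell with fewer than 333333 reads a single read lifts a gene over the limit.

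The cells carried transcripts that define HSCs, and a list of *Cd48* and markers of mature blood cells was mixed in its detection. *Gata2* and *Meis1* were expressed in 62 of 62 cells and *Kit*, the receptor for stem cell factor, in 61. *Ly6a*, which encodes Sca-1, was expressed in 43 cells and *Slamf1*, which encodes the CD150 used to sort every one of these cells, in 15 of 62, or 24.2% (95% exact interval 14.2 to 36.7). *Cd48* had no read in 62 cells. With 3 of 62 taken as an approximate upper limit, and not an exact interval, up to 4.84% of cells could hold a read. This sets no limit on cells that express it. Of the 8 genes of this list in the data, 6 were expressed in under 10% of cells and *Cd79b* in 16 cells. *Ptprc*, which encodes CD45 of all blood cells and its B cell form, was expressed in 50, at a level of 6.57 ± 3.59. Neither CD45 as a whole nor CD79b is named in the sort given above. In all, 52 of the 62 cells expressed at least 1 of the 8, a count to which *Ptprc* gives most. *Cd4*, the pre-B cell gene *Vpreb1*, the erythroid factor *Klf1*, the haemoglobin gene *Hba-a1*, the complement genes *C1qa* and *C1qc* and the myeloid factor *Cebpa* also had no read in any of the 62 cells. Among 15 granulocyte and monocyte genes, 10 were expressed in under 10% of cells, which held for 40.3% of all 15181 genes in the table. *Prtn3*, which encodes a granule protease, stood apart from them with 59 cells and a level of 7.11 ± 1.96 (SD, n = 62 cells), while *Mpo*, another granule gene, was expressed in 1. Of the 4 B cell genes, *Cd79b* was the one expressed in more than 1 cell. Of the 10 erythroid genes 7 were expressed in under 10% of cells, while *Car2* was in all 62, *Ermap* in 19 and *Tfrc*, the transferrin receptor, in 12.

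By mean level the first gene was *Rn45s*, the precursor of ribosomal RNA, at 14.64 ± 0.41 (SD, n = 62 cells), followed by *Eef1a1*, the elongation factor that brings tRNA to the ribosome, at 13.38 ± 0.40, and *Malat1*, a nuclear non-coding RNA, at 13.19 ± 0.88. *Actb* (12.29 ± 0.59), *Rpl3* (12.25 ± 0.61), the histone variant gene *H3f3b* (11.99 ± 0.80) and *B2m*, the light chain of MHC class I (11.91 ± 0.58), came next. *Rn45s* took between 1.295% and 4.69% of the reads of a cell, and the 20 highest genes of each cell took between 8.75% and 16.5%. The first 15 also held *Rps6*, *Rplp0*, *Hsp90ab1*, *Ywhaz*, *Rpl4* and *Rpsa*.

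Since long transcripts give more fragments, genes were also ranked by CPM per kilobase of their longest annotated transcript. On this scale *Eef1a1* was first at 6151 CPM per kb and *B2m* second at 4841, followed by *Actb* (2831), *Rpl3* (2817) and *Rps6* (2673). *Ftl1*, the light chain of the iron store ferritin, entered the first 15 with 2349 CPM per kb. *Malat1*, which followed *Eef1a1* by reads, had 1554 and left the first 15. *Rn45s* has no transcript of its name in the annotation used and was not placed.

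Genes of the immediate-early response were also high on the scale of reads. *Egr1*, an immediate-early zinc finger factor, had a mean level of 11.12 ± 1.69, with a lowest value of 4.15, a median of 11.67 and a highest of 13.15. Only 2 of the 62 cells were below 5 for *Egr1*. *Fos*, its partner in the early response, had a median of 10.99 and lay between 2.26 and 12.96. *Car2*, a carbonic anhydrase of the erythroid list, was at 10.81 ± 1.14 and in no cell below 7.85.

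**Figure D1:**
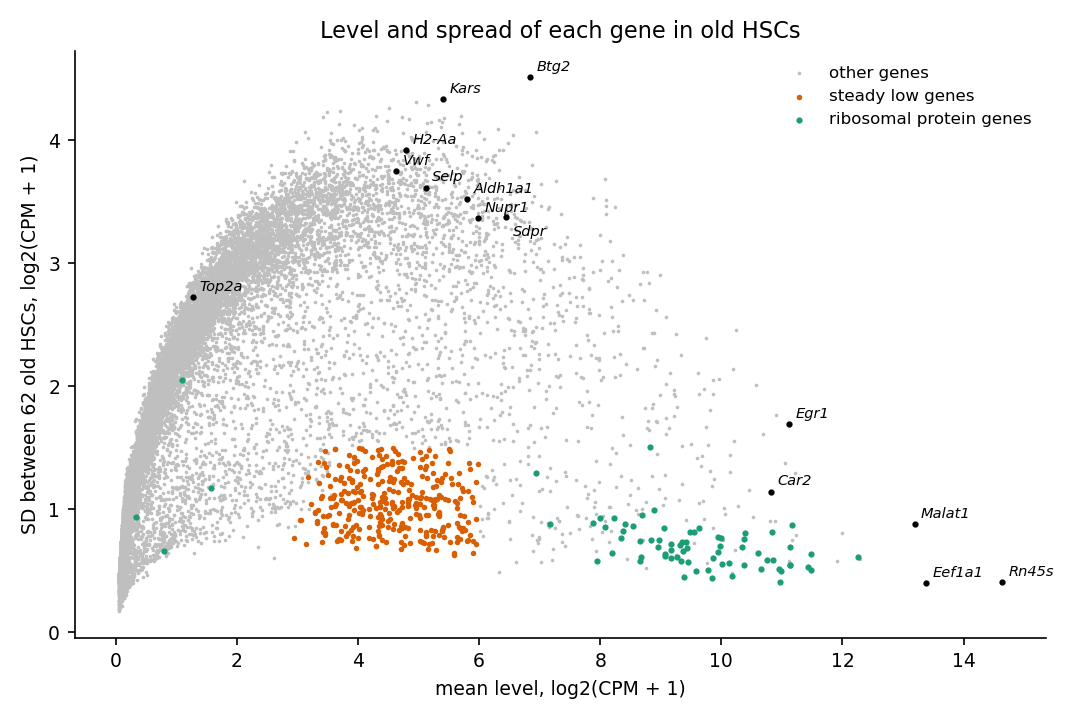
Mean level of each gene over the 62 old HSCs (x, log2(CPM + 1)) against its SD between cells (y, same scale), with ribosomal protein genes in green, 328 steady low genes in orange and selected genes named. Genes other than the orange ones at mean levels from 3 to 6 have a median SD of 3.31, against 1.05 for the orange genes and 0.69 for the ribosomal protein genes. The orange genes were chosen for an SD below 1.5.

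Genes expressed in every cell made up 491 of 15181 in the table (3.23%), and they held 28.2% of all counted reads. At the other end 1831 genes were expressed in no cell, and 1041 of the 15181 had no read in the 62 cells. In between, 8055 genes (53.1%) were expressed in 10 to 90% of cells and held 56.6% of the reads. Of the cytosolic ribosomal protein genes 70 of 74 were expressed in every cell, with a median level of 9.40 and a median SD of 0.69 over the list, so this family accounted for 70 of the 491. Of the 26 cytoskeletal and housekeeping genes 18 were in every cell, of the 24 translation factor genes 6, of the 18 glycolysis genes 3 (*Gpi1*, *Gapdh* and *Ldha*), and of the 57 genes for subunits of oxidative phosphorylation none. *Cox4i1*, a subunit of cytochrome oxidase, came closest with 61 cells.

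The 4 other ribosomal protein genes were nearly silent in the table. *Rpl26* was expressed in 1 cell, *Rpl30* in 6, *Rps27* in 15 and *Rpl34* in 18, with levels between 0.33 and 1.58, while the 70 others lay between 6.94 and 12.25. Each of the 4 encodes a protein present in every ribosome. Between 6.85% and 46.95% of the 51-base stretches (the read length) of their longest transcripts occur in another annotated gene, against a median of 34.8% for the 70 others. The study allowed 1 alignment per read, and where reads of these 4 genes went was not tested. They were also expressed in at most 19 of the 52 young cells.

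**Figure D2:**
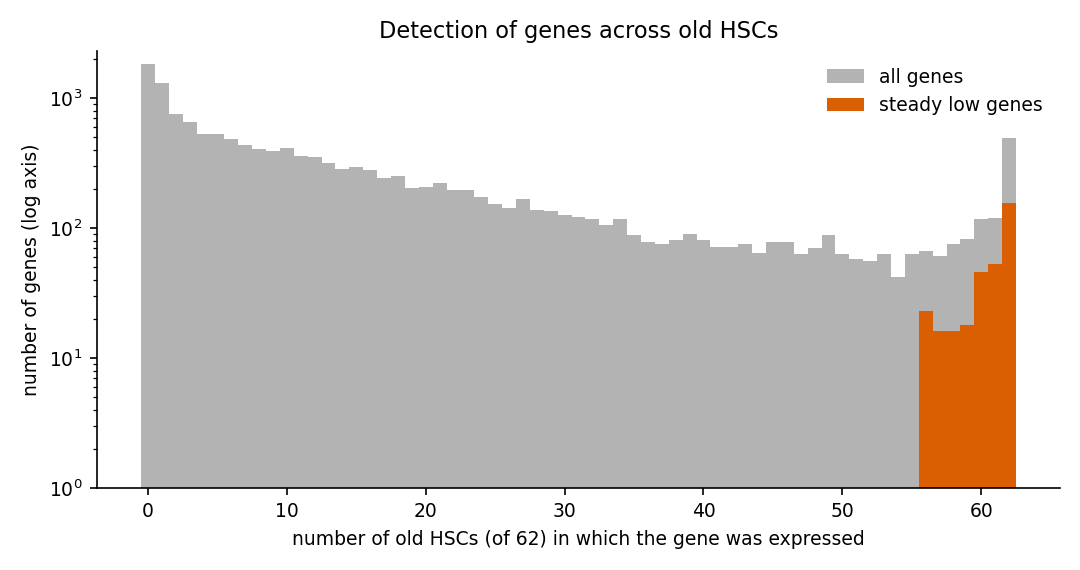
Number of genes (y, log axis) by the number of old HSCs, of 62, in which they were expressed (x), with all genes in grey and steady low genes in orange. The distribution falls from 1831 genes in no cell and rises again to 491 genes in every cell, of which 156 are steady and low.

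Among the genes expressed in every cell, many were neither abundant nor part of the HSC programme. Of the 491, 202 had a mean level below 6, whereas 161 were at 8 or above. They included genes known for tissues other than blood, such as *Gad2*, an enzyme that makes the neurotransmitter GABA, at 3.84 ± 0.80, *Chrnb4*, a nicotinic acetylcholine receptor subunit, at 4.35 ± 0.79, *Nphs1*, the nephrin of the kidney filter, at 5.02 ± 0.74, *Mc1r*, the receptor for melanocyte-stimulating hormone, at 4.30 ± 0.70, and *Ctcfl*, a testis gene, at 5.89 ± 0.65. *Gad2* lay between 2.05 and 6.17 in the 62 cells and was expressed in 52 of 52 young cells too. These genes were picked after their values had been seen.

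To describe them, genes expressed in at least 56 cells with a mean level below 6 and an SD below 1.5 were called steady low genes, limits likewise chosen with the values in view. There were 328 of them, 2.16% of the table. Their median SD was 1.05, against 3.31 for the 1974 other genes with mean levels from 3 to 6, a contrast that the limits themselves set. Together they took between 0.596% and 2.98% of the reads of a cell, with a median of 1.20%. They moved together across cells, with a median pairwise r of 0.32, against 0.03 among the others. Of the 328, 315 (96.0%) were expressed in at least 47 of the 52 young cells, against 266 of the 1974. The 1974 had not been chosen for wide detection, so the 2 counts are not of like genes. Their mean levels in old cells followed those in young cells with r = 0.92 across the 328 genes, which are not independent of each other.

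Their transcripts were rich in sequence that occurs in many genes. In the 321 steady low genes with an annotated transcript, 260 (81.0%) had over 1% of their 25-base stretches in at least 10 other genes, against 419 (21.3%) of 1963 other genes at these levels. Of the stretches themselves, the 3 found in the most steady low genes are printed here because they are what the transcripts share. Runs of few different letters and stretches with 10 bases in common were passed over, and since the choice was made on the steady low genes, the counts in them are a description. As background, letters of this kind are known from the B1 family of short interspersed repeats, of which the mouse genome holds very many copies. No repeat annotation was used.

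Stretch 1: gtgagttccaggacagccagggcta

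Stretch 2: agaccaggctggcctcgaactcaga

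Stretch 3: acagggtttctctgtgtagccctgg

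The first was in the longest transcript, on either strand, of 104 of 311 steady low genes with a transcript of the same name (33.4%), of 103 of 1897 others at these levels (5.43%) and of 464 of 14438 genes in all (3.21%). For the second the counts were 79 (25.4%), 80 (4.22%) and 362 (2.51%). The third was in 62 steady low genes (19.9%), in 73 of the others (3.85%) and in 351 in all (2.43%). At least 1 of the 3 was in 142 of the 311 (45.7%). Whether reads from repeats elsewhere were counted on these genes was not tested. *Lgr5* and *Dlgap5*, both steady and low, held no 25-base stretch found in 10 other genes.

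Several genes of the lists examined here belonged to this class. In the granulocyte list it was *Csf3r*, the receptor for G-CSF, which was in 62 of 62 cells at 5.52 ± 1.48. In the S phase list it was *Tyms*, the thymidylate synthase, in 61 cells at 5.98 ± 1.37. In the G2/M list there were 4, *Birc5*, *Cenpf*, *Hmmr* and *Dlgap5*, in 56 to 61 cells. In the interferon list *Xaf1* was in 62. These genes were left out of the counts of list members per cell below.

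The HSC identity list was mixed in its detection. Of its 30 genes 3 (*Meis1*, *Gata2* and *Lmo2*) were expressed in every cell, 20 in 10 to 90% of cells, and 1, *Hoxb5*, in under 10%. *Meis1*, a homeobox factor, had a lowest value of 2.57, a median of 10.60 and a highest of 11.99. *Gata2* lay between 3.76 and 11.95 with a median of 9.61, and *Kit* between 1.96 and 12.20 with a median of 9.54. *Mecom*, another factor of HSC maintenance, was expressed in 40 cells, *Runx1* in 45, *Procr*, the protein C receptor, in 24 and *Fgd5* in 14. Each cell expressed between 14 and 25 of the 30 genes, with a median of 18.

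The 4 genes that mark old HSCs in this study were expressed in most cells but in none of them universally. *Sdpr*, a caveolar protein (chr1:51289126-51302960), was expressed in 51 of 62 cells, or 82.3% (95% exact interval 70.5 to 90.8). Its levels had a lowest value of 0, a median of 7.24 and a highest of 11.60, and only 2 cells held no read of it. *Nupr1*, a stress-response chromatin protein (chr7:126623246-126625470), was expressed in 47 cells, or 75.8% (63.3 to 85.8), with a median of 6.90. *Aldh1a1*, which oxidizes retinal (chr19:20492583-20643463), was expressed in 46, or 74.2% (61.5 to 84.5), with a median of 6.88. *Selp*, the adhesion receptor P-selectin of platelets and endothelium (chr1:164115264-164150026), was expressed in 42, or 67.7% (54.7 to 79.1), with a median of 5.90. The 4 intervals overlap, but the shares come from the same 62 cells, so this does not show that they are alike. Of *Sdpr* and *Selp*, 16 cells expressed only *Sdpr* and 7 only *Selp*. Positions are from RefSeq on GRCm38.

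Most cells expressed several of these markers. Each marker alone was expressed in 67.7% to 82.3% of cells, so cells with several are common even where markers are unrelated. All 4 were expressed in 22 cells, 3 in 22, 2 in 14 and 1 in 4, and every cell expressed at least 1. Their levels were nearly unrelated between cells: the highest of the 6 pairwise r was 0.27, for *Sdpr* and *Nupr1*, and that of *Sdpr* and *Selp* was 0.03. *Sdpr* and *Nupr1* were both expressed in 40 cells and neither was in 4. Per kilobase *Aldh1a1* was the highest with 144 CPM, followed by *Sdpr* with 129, *Nupr1* with 107 and *Selp* with 67.6. The SDs of all 4, from 3.37 to 3.62, were above the running median of genes at the same level, by 0.38 for *Nupr1* to 0.63 for *Selp* and *Sdpr*.

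**Figure D3:**
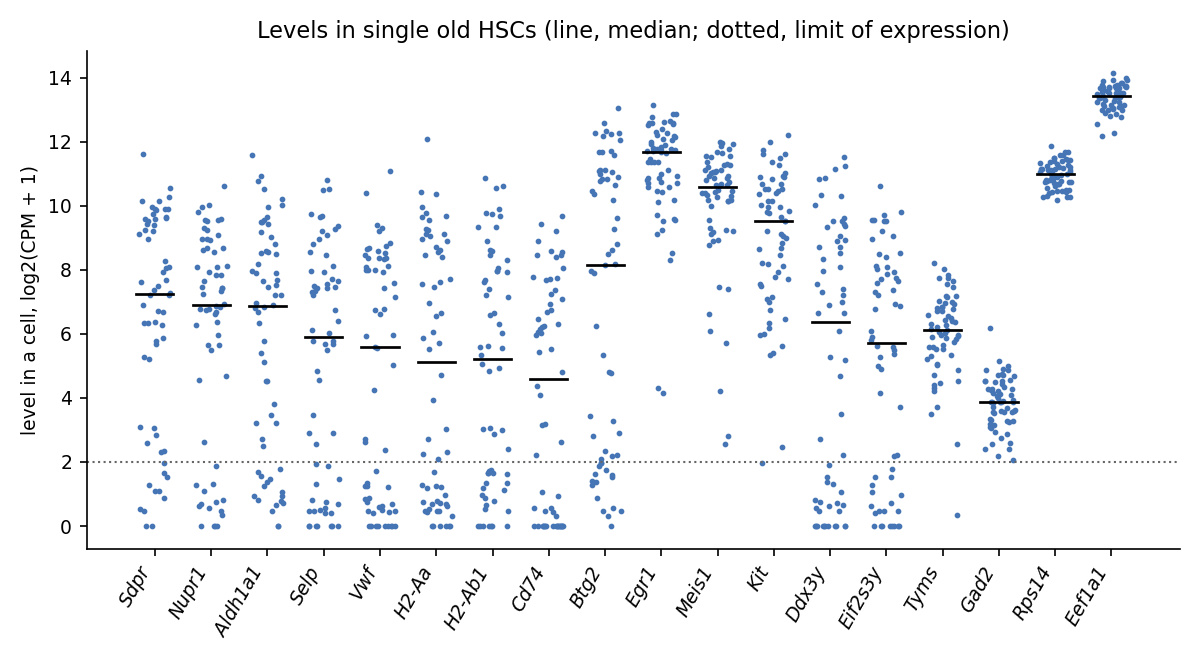
Levels of 18 genes in each of the 62 old HSCs (points, log2(CPM + 1)), with the median as a line and the limit of an expressing cell dotted. *Sdpr*, *Selp*, *H2-Aa*, *Btg2* and *Ddx3y* spread from 0 to above 10, whereas *Gad2*, *Rps14* and *Eef1a1* have SDs of 0.80, 0.41 and 0.40.

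High and low cells of a single gene were common at middle levels. Of all genes, 1567 were expressed in 40 to 60% of cells, with a median level of 6.09 in the expressing cells and a median of 18 cells with no read. The highest of them in expressing cells was *Kars*, the lysyl-tRNA synthetase that every cell needs for protein synthesis. It was expressed in 37 cells at a median of 9.65, while 25 cells were at or below 2 and 6 of these held no read. *Sept11* (27 cells at 9.17), *Ccdc6* (36 at 9.12), the hexokinase *Hk2* (32 at 9.07) and *Golt1b* (35 at 9.02) followed.

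The Y-linked genes are set beside such patterns, since a male cell normally carries their chromosome and they are transcribed broadly. Whether each of these cells kept its Y chromosome was not tested. *Ddx3y*, a helicase, was expressed in 38 of 62 cells, with a median of 6.37 and a range of 0 to 11.51. *Eif2s3y*, an initiation factor subunit, was expressed in 42, *Uty* in 34 and *Kdm5d* in 10. Only 3 cells expressed all 4 and 4 cells expressed none, though every cell held a read of at least 1. *Eif2s3y* and *Uty* had r = -0.30, and *Ddx3y* and *Eif2s3y* 0.19. *Xist*, the RNA of the silenced X, was expressed in 8 cells and nowhere above 3.69. In the young cells it was the reverse, with *Xist* expressed in 50 of 52 and *Ddx3y* in none, so that age and sex cannot be told apart wherever young cells are set beside old ones.

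Genes for a constitutive process also spread widely between cells. The list of 57 subunits of oxidative phosphorylation had a median level of 4.89 and a median SD of 3.00. The megakaryocyte and platelet list had a median level of 2.94 and a median SD of 2.97 over 35 genes. *Atp5b*, a subunit of the ATP synthase, ranged from 0 to 11.09 with a median of 8.43, and *Sdha*, of complex II, was expressed in 39 cells at a median of 7.34. A cell expressed between 28 and 54 of the 57. Set against the running median of SD at the same mean level, the median gene of the oxidative phosphorylation list was at -0.12 (21 of 57 above 0). It was at 0.26 in the platelet list (20 of 26), 0.34 in the HSC identity list (22 of 29) and -0.42 in the ribosomal protein list (2 of 70). All genes tested have a median of 0.00 (4246 of 8537 above 0). Values above 0 were not particular to the platelet and HSC lists. The chaperone list was at 0.51 (14 of 16), and the glycolysis (15 of 18) and translation factor (19 of 24) lists were each at 0.25. The cytoskeletal and housekeeping list was at -0.03 (12 of 26).

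By SD among the 1179 genes with a mean level of at least 5, the steadiest were *Eef1a1* (0.40), *Rn45s* (0.41), *Rps14* (0.41), *Rps29* (0.44), *Rpl37a* (0.45) and *Rpl32* (0.45). *Rps14* never left the range 10.17 to 11.86. The widest was *Btg2*, an antiproliferative early-response gene (chr1:134074865-134079155), with a mean of 6.85 and an SD of 4.51. It was expressed in 46 cells at a median of 10.41, at 7 or above in 34, and 16 cells were at or below 2 although only 1 of them had no read. *Kars* (4.34), *Cul5*, a ubiquitin ligase scaffold (4.29), *Sec61a1*, the channel of protein export (4.20), and *Rgs1*, a regulator of G protein signalling (4.19), came next. *Ddx3y* was ninth at 4.14.

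A ranking by squared coefficient of variation of CPM, after removal of the running median over genes of like mean, picked out other genes. Of the first 20 among 8537, 19 had over 50% of their summed CPM in 1 cell, with a median of 90.2%, and of the first 100 the same held for 88. The corresponding number over all 8537 genes was 1096, with a median of 24.3% in the highest cell. Genes for zinc finger proteins named *Zfp* were 7 of the first 20, against 214 of the 8537. *Zfp60* led the list and had 96.3% of its CPM in cell H12, at a level of 11.85, while 46 cells had no read. *Tgfbr1*, a receptor for TGF-beta, which holds HSCs at rest, had 77.4% in cell E5, and *Osmr*, the oncostatin M receptor, 96.7% in cell G6. *Phf20*, *Zfp26* and *Vipas39* were less extreme, with 58.7%, 33.95% and 71.8%. The highest cell was not the same for all of the first 20, and E5 was the highest for 4 of them (*Tgfbr1*, *Znfx1*, *Zfp26* and *Spint1*). Only 4 of the first 100 were shared with the first 100 by SD of log2 level after the same kind of correction.

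Genes expressed in 1 to 3 cells numbered 2729. The highest values among them were those of *Jrk*, at 11.23 in cell F8, *Polm*, a DNA polymerase, at 11.15 in H6, *Il20ra*, a cytokine receptor, at 11.07 in C6, *Zfp82* at 10.97 and *Ugt8a*, a lipid galactosyltransferase of myelin, at 10.96, both in F10. *Ugt8a* was expressed in 1 cell only and 59 cells had no read. *Ttn*, which encodes the muscle protein titin, was at 10.75 in H1 and had 94.3% of its CPM there.

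Correlation between genes was computed over the 7013 genes expressed in 10 to 90% of cells with a mean of at least 10 CPM, which gives 24587578 pairs. All pairs share the same 62 cells, the same depths and 1 capture. The median r was 0.01, the 1st percentile -0.26 and the 99th 0.33, and 772 pairs (0.00314%) had r of at least 0.6. The highest were mostly pairs of genes with shared sequence. Of the first 15, 14 shared 51-base stretches between their longest transcripts, as did 37 of the first 50. Any shared stretch was enough, and *Ifi205* and *Mnda*, with r = 0.98, share at most 0.17% of theirs. *Tagap* and *Tagap1* had r = 0.99 and share 63.2% of such stretches of 1 of them, *Selenbp1* and *Selenbp2* 0.99 (51.6%), *Gstp1* and *Gstp2* 0.98 (64.1%), *Dynlt1a* and *Dynlt1b* 0.98 (62.7%), and *Lyz1* and *Lyz2* 0.95 (15.4%). A read from such a stretch cannot be assigned to 1 of the genes, so each of these pairs is uncertain as co-expression. *Gm2382* and *Mthfs* were the one pair of the first 15 with no such stretch found. In all, 90 of the 772 pairs shared stretches, 3 lay within 100 kb of each other and 12 could not be placed. The other 667 were called separate, which means no shared stretch was found and they were not within 100 kb. This class can still hold related genes, such as *Ifi205* and *Mndal* with r = 0.76, which lie 131616 bases apart. Whether reads were shared in the 667 was not tested further.

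Most of the separate pairs rested on few cells. Of the 667, 175 kept r of at least 0.6 without the 2 cells farthest from the median of the first gene, 409 had a Spearman's rho of at least 0.4, and 439 kept 0.6 after regression on the number of expressed genes and the total. *Aldh1l1* and *Gtf2h4*, with r = 0.87, were expressed together in 6 cells and singly in 4. The lowest r was -0.62, for *Pgm2*, a phosphoglucomutase, and *Shfm1*, a proteasome subunit, and rho for this pair was -0.32. *Psmb10* and *Rapgef2* followed at -0.60, then *C1d* and *Nrd1* at -0.59 and *Cd81* and *Crtc2* at -0.59.

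Genes of DNA replication had the most separate partners. *Top2a*, the topoisomerase that untangles chromosomes, had 25 separate partners at r of at least 0.6, *Uhrf1*, which keeps DNA methylation at the fork, had 19, *Hells*, a chromatin remodeller, 17, *Brca2* 13, and *Chek1* and *Lig1* 12 each. *Top2a* and *Uhrf1* had r = 0.85 and rho = 0.43, were expressed together in 7 cells and singly in 5, and were both off in 50. *Pola1* and *Top2a* had r = 0.81. In the S phase list the median r over 153 pairs of 18 genes was 0.33, and 0.24 after regression on the number of expressed genes and the total. In the G2/M list it was 0.18 over 66 pairs, and 0.10 after regression. For all pairs the medians were 0.01 and -0.00. At r of at least 0.3 there were 60.1% of the S phase pairs and 27.3% of the G2/M pairs, against 1.86% of all pairs.

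A few cells expressed most of these genes at once, while single members were found more widely. Of the 33 S phase genes counted, the median cell expressed 6, and H8 and C3 expressed 26, D4 25 and B6 24. G9 followed with 21, A4 and B10 with 20, and B2 with 14. A4 was the shallowest cell, with 276316 reads and 6226 expressed genes, so a single read counts there. B10 had 465090 reads and G9 3171866. *Top2a* was at 6.03 to 10.61 in the first 4 cells and was expressed in 5 of the 58 others. *Hells* lay between 5.44 and 7.86 in the 4 and was expressed in 6 of the others. The 4 were set apart by the count of S phase genes, so the contrast for members of that list, such as *Hells*, follows in part from the choice. *Pcna*, the sliding clamp of replication, was expressed in 29 of the 58, *Smc4*, a condensin subunit, in 27, *Mcm3* in 24 and *Mcm6* in 22. C3 had the most G2/M genes, 29 of 36, while the other 3 cells had 16 to 19 and the 58 cells 4 to 15. *Mki67*, the proliferation antigen, was expressed in the 4 and in 10 of the 58. *Ccnb1*, a cyclin of mitotic entry, was expressed in none of the 4 and in 4 others, and *Ccna2* in 2 cells of the 62, nowhere above 2.27.

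The 4 cells also had more expressed genes than the median of the 58 others, 5146 to 5927 against 3873. The highest of the 58 was 6267. The depths of the 4 were ordinary, at 1376384 to 2298859 reads. After thinning to 250000 reads they had 5440 to 6101, against a median of 4144. Over all 62 cells r between the number of S phase genes and the number of expressed genes was 0.72. Without the 4 cells the median r of the S phase list was 0.22, against 0.33 with them. For the G2/M list it was 0.09, against 0.18. The part of cell size or of RNA content in this was not tested.

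**Figure D4:**
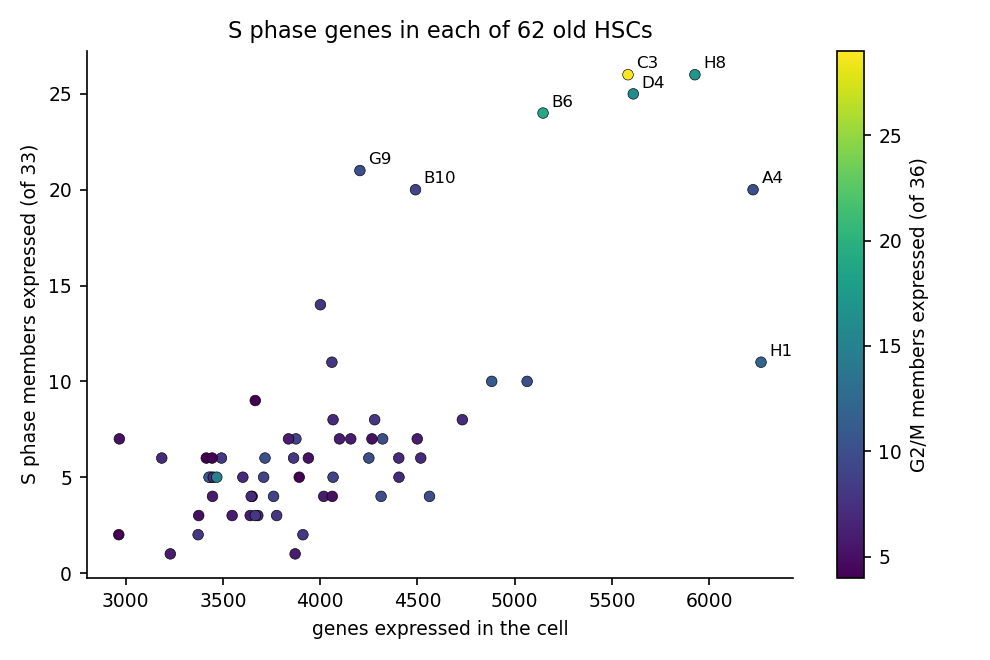
Number of S phase genes expressed (y, of 33) against the number of all genes expressed (x) in each of the 62 old HSCs, coloured by the number of G2/M genes (of 36). H8, C3, D4 and B6 stand at 24 to 26 S phase genes, while the median cell has 6.

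Promoters of 2 genes of the S phase list are shown because E2F, the factor that drives S phase genes, binds sites of the kind that can be read in them. *Hells* and *Uhrf1* had r = 0.76, while the highest r of *Mcm6* in the list was 0.51, with *Pola1*. Sequences run 5′ to 3′ on the strand of the gene from 250 bases before to 50 after its start, from RefSeq on GRCm38.p6, and capitals mark the E2F-type sites TTTCCCGC, TTTGGCGC, TTTCGCGC and TTTGCCGC on either strand, which may overlap. *Hells* had 1, at position -62 from the start, and *Mcm6*, a subunit of the replicative helicase, had 3, of which 2 overlap.

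Hells, chr19:38930740-38931039, plus strand: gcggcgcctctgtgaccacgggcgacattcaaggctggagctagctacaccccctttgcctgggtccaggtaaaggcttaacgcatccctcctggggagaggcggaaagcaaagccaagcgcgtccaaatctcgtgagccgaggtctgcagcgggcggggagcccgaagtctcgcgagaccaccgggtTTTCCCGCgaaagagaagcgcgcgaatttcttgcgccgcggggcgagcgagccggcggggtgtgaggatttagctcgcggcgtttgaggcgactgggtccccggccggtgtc

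Mcm6, chr1:128359656-128359955, minus strand: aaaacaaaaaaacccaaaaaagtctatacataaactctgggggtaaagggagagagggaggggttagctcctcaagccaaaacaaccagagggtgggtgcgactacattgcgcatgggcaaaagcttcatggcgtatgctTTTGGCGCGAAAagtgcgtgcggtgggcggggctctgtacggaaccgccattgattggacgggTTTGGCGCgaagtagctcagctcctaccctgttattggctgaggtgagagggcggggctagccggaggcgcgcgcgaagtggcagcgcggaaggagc

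Of the 26 S phase genes with a promoter in the reference, 11 (42.3%) held at least 1 of these sites, against 744 (2.26%) of all 32851 promoters. Among 34 G2/M genes it was 1. The G2/M promoters more often held the cell cycle homology region TTTGAA, in 24 of 34 (70.6%), against 5878 (17.9%) of all promoters and 4 of 26 of the S phase list. A match is a description of the sequence. The lists were made from genes known for these phases, so the sites say nothing of these cells.

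MHC class II genes, which present peptides to T helper cells and are best known from B cells, dendritic cells and macrophages, formed a second set. *H2-Ab1* (chr17:34263227-34269418) was expressed in 39 of 62 cells, or 62.9% (49.7 to 74.8), and *H2-Aa* (chr17:34282744-34287823) in 38, or 61.3% (48.1 to 73.4). *Cd74*, the invariant chain, was expressed in 37 and *H2-Eb1* in 27. *H2-Aa* had a median of 5.12 and a highest value of 12.08, with 24 cells at or below 2, and *H2-Ab1* had a median of 5.20 and a highest of 10.86. *Ciita*, the master activator of the class, was expressed in 3 cells.

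Of the 28 pairs of 8 class II genes 8 (28.6%) had r of at least 0.3, against 1.86% of all pairs, and 5 of the 8 were among *H2-Aa*, *H2-Ab1*, *H2-Eb1* and *Cd74*. Pearson's r was 0.57 for *H2-Aa* and *Cd74* (rho 0.58), 0.53 for *H2-Eb1* and *Cd74*, 0.44 for *H2-Aa* and *H2-Ab1* and 0.39 for *H2-Ab1* and *Cd74*. The r of 0.95 between *H2-DMb1* and *H2-DMb2* is that of a pair sharing 26.3% of 51-base stretches. *H2-Aa* and *Cd74* were both expressed in 31 cells and neither in 18, and 13 cells had 1 of them. Of the 4 genes *H2-Aa*, *H2-Ab1*, *H2-Eb1* and *Cd74*, 20 cells expressed all and 13 expressed none. Over the 28 pairs the median r was 0.22, and 0.20 after regression, so that it moved less than that of the cell cycle lists. *H2-DMa*, a peptide loader, was expressed in 38 cells and stood outside the block in the heat map of correlations. Of the cells that usually carry class II, 0 to 2 B cell genes of 4 were expressed per cell, and 0 to 4 of 9 dendritic cell and macrophage genes, with a median of 2. Of these 9, *Cst3*, a protease inhibitor, was expressed in 53 cells at 6.53 ± 2.69 and *Lyz2*, which shares sequence with *Lyz1*, in 43, while the 7 others were in at most 5 cells, with *C1qa* and *C1qc* at 0. Their part in the class II levels was not tested. The mean level of the class II list had r = 0.44 with that of the interferon response list over the 62 cells, and 0.41 after regression.

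The promoters of *H2-Aa* and *H2-Eb1* are shown since both genes belong to this set. Capitals mark CCAAT on either strand, the core of the Y box of class II promoters.

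H2-Aa, chr17:34287774-34288073, minus strand: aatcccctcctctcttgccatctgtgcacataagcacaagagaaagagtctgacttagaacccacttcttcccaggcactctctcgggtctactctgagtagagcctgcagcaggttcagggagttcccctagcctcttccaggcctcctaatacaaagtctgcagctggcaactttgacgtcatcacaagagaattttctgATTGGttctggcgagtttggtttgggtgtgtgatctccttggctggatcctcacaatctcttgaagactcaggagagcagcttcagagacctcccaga

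H2-Eb1, chr17:34305617-34305916, plus strand: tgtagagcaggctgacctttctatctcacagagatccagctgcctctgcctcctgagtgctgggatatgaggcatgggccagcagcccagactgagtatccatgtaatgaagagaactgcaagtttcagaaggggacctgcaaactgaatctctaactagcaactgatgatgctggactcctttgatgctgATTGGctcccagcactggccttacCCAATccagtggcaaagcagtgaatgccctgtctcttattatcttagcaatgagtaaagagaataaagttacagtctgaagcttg

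*H2-Aa* had 1 match of this core, at -48 from the start, and *H2-Eb1* had 2, at -59 and -35. The matches at -48 and -59 are part of the longer form CTGATTGG, and that at -35 is not. CCAAT is short and was found in 12289 (37.4%) of all promoters, and in 6 of the 7 class II promoters in the reference. CTGATTGG was found in 1346 (4.10%) of all promoters and in 3 of the 7.

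**Figure D5:**
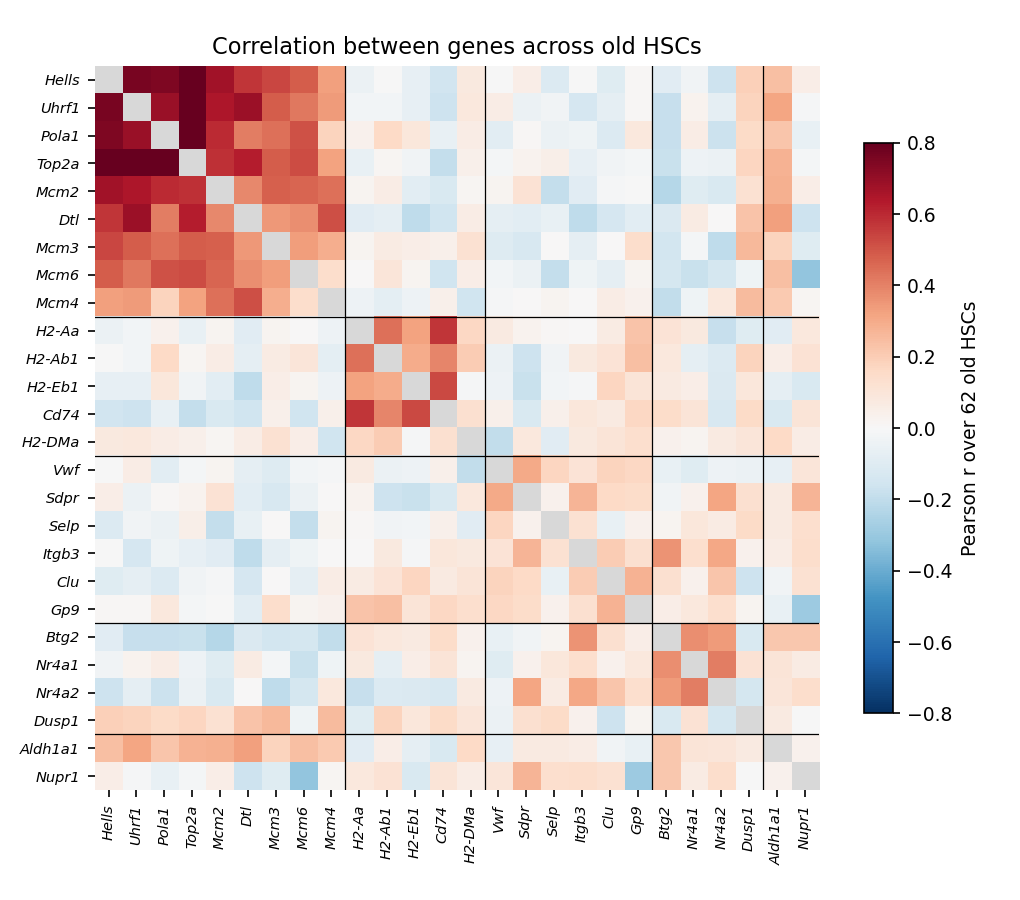
Pearson's r over the 62 old HSCs between 26 genes of replication, MHC class II, platelets, the early response and old HSC markers (lines separate the groups). Replication genes form the strongest block, *H2-Aa*, *H2-Ab1*, *H2-Eb1* and *Cd74* a weaker one, and the platelet genes show no such block, with r = 0.30 for *Vwf* and *Sdpr*.

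Platelet genes differed in how many cells expressed them, and most pairs of them were weakly correlated. Of the 35 megakaryocyte and platelet genes 22 were expressed in 10 to 90% of cells and 8 in under 10%, against 53.1% and 40.3% of all genes. *Vwf*, the gene of von Willebrand factor, was expressed in 37 cells, or 59.7% (46.4 to 71.9), and *Itgb3*, the beta chain of the platelet integrin, in 40. *Plek*, a platelet kinase substrate, was expressed in 42, *Nfe2*, a megakaryocyte factor, in 51, and *Clu* in 22 at a median of 8.45. Among the platelet surface and granule genes *Gp9* was expressed in 24 cells, *Itga2b* in 17, *Pf4* in 11, *Gp1ba* in 9, *Gp5* in 3, and *Gp1bb* and *Ppbp* in 2 each. The median r over 210 pairs of 21 genes was 0.04, and 4.29% of pairs reached 0.3, against 0.01 and 1.86% for all pairs. The number of platelet genes in a cell had r = 0.62 with the number of all expressed genes. The highest r were 0.42 for *Gp1ba* and *Gpr64*, 0.41 for *Gp1ba* and *Pf4* and 0.36 for *Sdpr* and *Slc14a1*. *Vwf* and *Sdpr* had r = 0.30 and were both expressed in 35 cells, while *Vwf* and *Selp* had r = 0.17.

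One cell carried most of the platelet programme. H8 expressed 30 of the 35 genes, where the median cell expressed 15 and the next cells 23. It held *Pf4* at 11.31, against a highest value of 9.25 in the other 61 cells, and *Treml1* at 7.96 against 4.76. *Thbs1*, which encodes thrombospondin, was at 6.37 in H8 and had no read elsewhere. *Vwf* was at 10.38 and *Itga2b*, the alpha chain of the platelet integrin, at 8.08, values other cells exceeded. *Gp5* was at 0 in H8. The cell had 1962125 reads, 5927 expressed genes, 26 S phase genes and 2 of 10 erythroid genes, so it is among the 4 cells with the most S phase genes. Whether H8 is 1 cell or more was not tested.

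Immediate-early genes ranged from among the highest in the table to nearly silent. The list had a median level of 4.89, with a lowest of 0.08 and a highest of 11.12. Of 33 genes 2 (*Egr1* and *Fos*) were expressed in every cell, 21 in 10 to 90% and 3 in under 10%. *Zfp36*, an RNA-decay factor, was at 8.87 ± 1.86 and *Ppp1r15a*, a stress phosphatase subunit, at 8.003 ± 2.94. *Nr4a1*, an orphan nuclear receptor, was expressed in 53 cells with a median of 6.95, and *Nr4a2* in 42. *Nr4a1* and *Nr4a2* had the highest r in the list, 0.41, and *Btg2* had 0.37 with *Nr4a1* and 0.34 with *Nr4a2*. *Egr3* was expressed in 26 cells. Over the 190 pairs the median r was 0.02. A cell expressed between 14 and 27 of the 33 genes, with a median of 20. The part of cell preparation in these levels was not tested.

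In a principal component analysis of 8024 genes the first component took 4.09% of the variance, the second 2.49% and the third 2.19%. The first had r = 0.86 with the number of expressed genes, 0.82 with the number of S phase genes and 0.55 with the number of platelet genes. *Cdca7*, *Elovl1*, *Tipin* and *Mcm3* led it on the side of cells with many genes, and *Clec1a*, *Klf6*, *Rnf14* and *Snrk* on the other.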

How the data were processed

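The authors mapped 51-base single reads to mm10 with TopHat 2.0.10, allowing 1 alignment per read, and deposited counts per RefSeq gene and cell without normalization, their methods naming rpkmforgenes for quantification. Whether strand was used in counting is not given in the sources used here. The table holds 15181 genes, of which 21 entries join several names. CPM and log2(CPM + 1) were computed from these counts. Shares have 95% exact Clopper-Pearson intervals. Running medians used genes with a mean of at least 10 CPM expressed in at least 5 cells. Lengths and shared 51- and 25-base stretches were taken from the longest GENCODE M21 transcript, a 51-base stretch being used to link genes only where at most 30 genes hold it. Regressions used the number of expressed genes and log10 of the total. The genes named are those with the highest levels, lowest and highest SDs, largest variation, widest on and off patterns and highest and lowest correlations, up to 10 members of each list, and a few others chosen after their values were seen. Members and lists were chosen with earlier results of these data known. Scripts were tested on simulated data. Python 3.11.15, scipy 1.17.1, edgeR 4.0.16 and DESeq2 1.42.0 were used. Doublets were not called. Some genes that the rule names are not reported here.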

Additional observations from a re-analysis of the deposited data

How the results depend on the processing

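Of 144 alternative values 125 stayed within 1.5 times the main count, 0.1 of r or the 95% interval of a share, and 19 did not. Changes of sign were not looked for. Genes expressed in every cell were 174 with all 74 old cells and 938 at a limit of 1 read. Of the first 100 most variable genes, 48 were shared with all 74 cells, 63 with the 51 cells of at least 1000000 reads, 60 with TMMwsp and 54 with poscounts factors, 65 with no filter on mean CPM and 4 by SD. Pairs with r of at least 0.6 were 2224 in cells of at least 1000000 reads, 432 at a pseudocount of 0.1, 1395 with no filter on mean CPM, 277 by Spearman's rho and 256 without the 2 farthest cells. At a limit of 1 read the shares were 96.8% for *Sdpr*, 88.7% for *Selp*, 93.5% for *Nupr1* and 96.8% for *Aldh1a1*. The S phase median r was 0.23 by rho and 0.22 without the 4 cells with the most S phase genes, a setting chosen after seeing the data, as were leaving out the 2 shallowest cells, the steady low genes or the pairs with shared stretches. The filter on mean CPM does not bear on detection, so it gave no value there. No paired analysis was possible because all cells come from 1 mouse. Depth limits detection: at the median of 2116024 reads, genes of a few CPM rest on few reads, and without molecular identifiers reads are not independent molecules.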
